A study of Mus musculus with 39 samples.

Results

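A set of 10 genes of lipopolysaccharide (LPS) sensing was followed in mouse microglia, the resident macrophages of the brain, 6 months after injections of LPS or vehicle. They were Tlr4, Cd14, Ly96, Tlr2, Tlr6, Myd88, Ticam2, Irak4, Traf6 and Chuk, chosen by symbol from known roles in the pathway, and all 10 symbols were among the 10915 gene entries of the expression table. LPS is a glycolipid of the outer membrane of Gram-negative bacteria. The surface protein CD14 passes it to a complex of Toll-like receptor 4 (TLR4) and MD-2, the product of Ly96, while TLR2 pairs with TLR6 or TLR1 to bind bacterial lipopeptides. The adaptor MyD88 then recruits IRAK kinases and the ubiquitin ligase TRAF6, which lead to the IκB kinases, among them IKKα (Chuk), and to NF-κB, and TRAM (Ticam2) carries signals from internalised TLR4 to the adaptor TRIF. In the brain, microglia are the main cells to carry TLR4.

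The study compared microglia of female mice on a C57BL/6J background in 6 groups of genotype and treatment. APP23 mice were hemizygous for a transgene of human amyloid-β precursor protein with the KM670/671NL mutation, driven by the Thy-1 promoter, which is active in neurons and not in microglia, and wildtype (WT) mice were their littermates. At 3 months of age all received 4 daily intraperitoneal injections: 4 of vehicle (PBS), 1 of LPS and then 3 of vehicle (1xLPS), or 4 of LPS (4xLPS). LPS came from Salmonella enterica serotype typhimurium and was given at 500 µg per kg of body weight. At 9 months, microglia were collected by cell sorting and their polyadenylated RNA was amplified and sequenced, giving 6 APP23 PBS, 5 APP23 1xLPS, 4 APP23 4xLPS, 9 WT PBS, 9 WT 1xLPS and 6 WT 4xLPS libraries. Nothing in the labels says whether the libraries of a group came from separate mice, and the spread on which the p-values rest may be partly technical.

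The values were normalized, log-transformed expression values that the authors had corrected, read here as log2. They were not scaled to gene length, so levels are compared between groups and never between genes. Library means lay between 9.001 and 9.01, depth was unknown, and libraries of a group correlated at 0.999158 to 0.99965. All 10 microglial marker genes, among them P2ry12, Tmem119 and Cx3cr1, had entries, and the mean of that list was between 12.683 in WT PBS and 12.725 in APP23 1xLPS. Of the markers of other cells, 2 of 10 for monocytes and neutrophils, 4 of 8 for dendritic cells, 5 of 8 for border-associated macrophages, 2 of 6 for astrocytes, 2 of 6 for the oligodendrocyte lineage, 1 of 6 for neurons, 1 of 6 for endothelial and mural cells and 0 of 9 for lymphocytes had entries, and the others were not analysed here. Differences were tested in limma over all 39 libraries and all 10915 entries, and rises and falls are named only at a Benjamini-Hochberg adjusted p under 0.05. Of the 33 residual directions that 39 libraries and 6 groups leave, 9 held no variance, so the tests used 24 degrees of freedom. Counts with all 33, called nominal here, are given beside them.

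The promoter windows below are shown for the members with a RefSeq window (GRCm38.p6) whose values are set side by side most in what follows: Tlr2 and its partner Tlr6, which were highest in WT PBS, and Chuk, which was lowest there. Each is the 250 bases before an annotated start, 5′ to 3′ on the gene's strand, with matched motifs in capitals. The motifs searched on both strands were GGAAGT, the core of sites of ETS factors such as PU.1, GGGCGG, a GC box, TGANTCA, an AP-1 site, a GAAA repeat (GAAA, any 2 bases, GAAA) found in interferon-response elements, and the NF-kB consensus.
Tlr2 chr3:83841609-83841858 minus strand: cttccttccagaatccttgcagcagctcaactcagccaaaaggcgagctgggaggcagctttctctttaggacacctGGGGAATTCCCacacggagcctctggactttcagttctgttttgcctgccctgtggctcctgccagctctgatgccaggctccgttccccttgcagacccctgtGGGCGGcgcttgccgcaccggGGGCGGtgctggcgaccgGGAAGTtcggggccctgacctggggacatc
Tlr6 chr5:64959167-64959416 minus strand: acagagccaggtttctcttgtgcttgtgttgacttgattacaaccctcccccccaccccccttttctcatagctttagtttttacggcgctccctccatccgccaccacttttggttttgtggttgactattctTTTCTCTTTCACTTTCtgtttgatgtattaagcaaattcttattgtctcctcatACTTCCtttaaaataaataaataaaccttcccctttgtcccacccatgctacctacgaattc
Chuk chr19:44107478-44107727 minus strand: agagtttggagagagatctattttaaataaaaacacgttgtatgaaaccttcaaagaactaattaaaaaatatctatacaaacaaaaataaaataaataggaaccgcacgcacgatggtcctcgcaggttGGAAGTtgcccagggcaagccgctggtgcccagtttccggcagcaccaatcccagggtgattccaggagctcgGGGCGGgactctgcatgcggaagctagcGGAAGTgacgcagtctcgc
The Tlr2 window held overlapping NF-kB matches from -173 to -163 counted from the start, GC boxes from -69 and from -48, and GGAAGT at -30 to -25. The Tlr6 window held 2 overlapping GAAA repeats on the opposite strand between -116 and -101 and GGAAGT on the opposite strand at -62 to -57, and the window of its other annotated start held none of the 5 motifs. The Chuk window held GGAAGT at -120 and at -19, and a GC box at -47. Of all 32851 promoter windows of that length in the table, 7.25% held the NF-kB consensus, 32.7% the GC box, 19.7% GGAAGT, 6.75% TGANTCA and 2.98% the GAAA repeat. The windows of Myd88, Irak4 and Traf6, the other members matched here (6 of 10 in all), held GC boxes, and that of Myd88 also a GAAA repeat at -40 to -31. These matches describe the letters of the windows and say nothing of binding.

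Among the 10 genes, 3 of 120 tests passed, and all 3 set a group against WT PBS microglia. They fell in the comparisons that called most of all entries: APP23 PBS against WT PBS (2.51%) and WT 4xLPS against WT PBS (1.51%). Tlr4, the signalling receptor for LPS, was lower in APP23 PBS than in WT PBS microglia. Chuk, which encodes IKKα, was higher in APP23 PBS and in WT 4xLPS than in WT PBS microglia. All differences were small on the scale of the corrected values, the widest between any pair of groups being 0.081 on the log2 scale (Irak4). Whether a smaller value means less RNA per microglial cell or fewer cells of a kind that holds more of it cannot be told apart in sorted bulk samples. Across the 6 groups, the limma F-test called 2 of the 10 members, Tlr4 (adjusted p = 0.0457) and Chuk (adjusted p = 0.0446), where 2.13% of all entries were called. It called 5 members (Tlr4, Tlr2, Tlr6, Irak4 and Chuk) with all nominal degrees of freedom, beside 21.1% of entries. Group membership accounted for 53.2% of the variance of the corrected values of Tlr4 and 56.2% of that of Chuk, against a median of 23.3% over all entries. These shares make no allowance for the 9 residual directions without variance. The F-test call of Tlr4 was lost on leaving out any of 6 libraries (APP23 1xLPS replicate 4 or WT PBS replicates 1, 5, 6, 7 or 8), with adjusted p up to 0.0664, and that of Chuk on leaving out any of 5 (WT PBS replicates 2, 3, 5, 8 or 9), with adjusted p up to 0.0611.

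**Figure D1:**
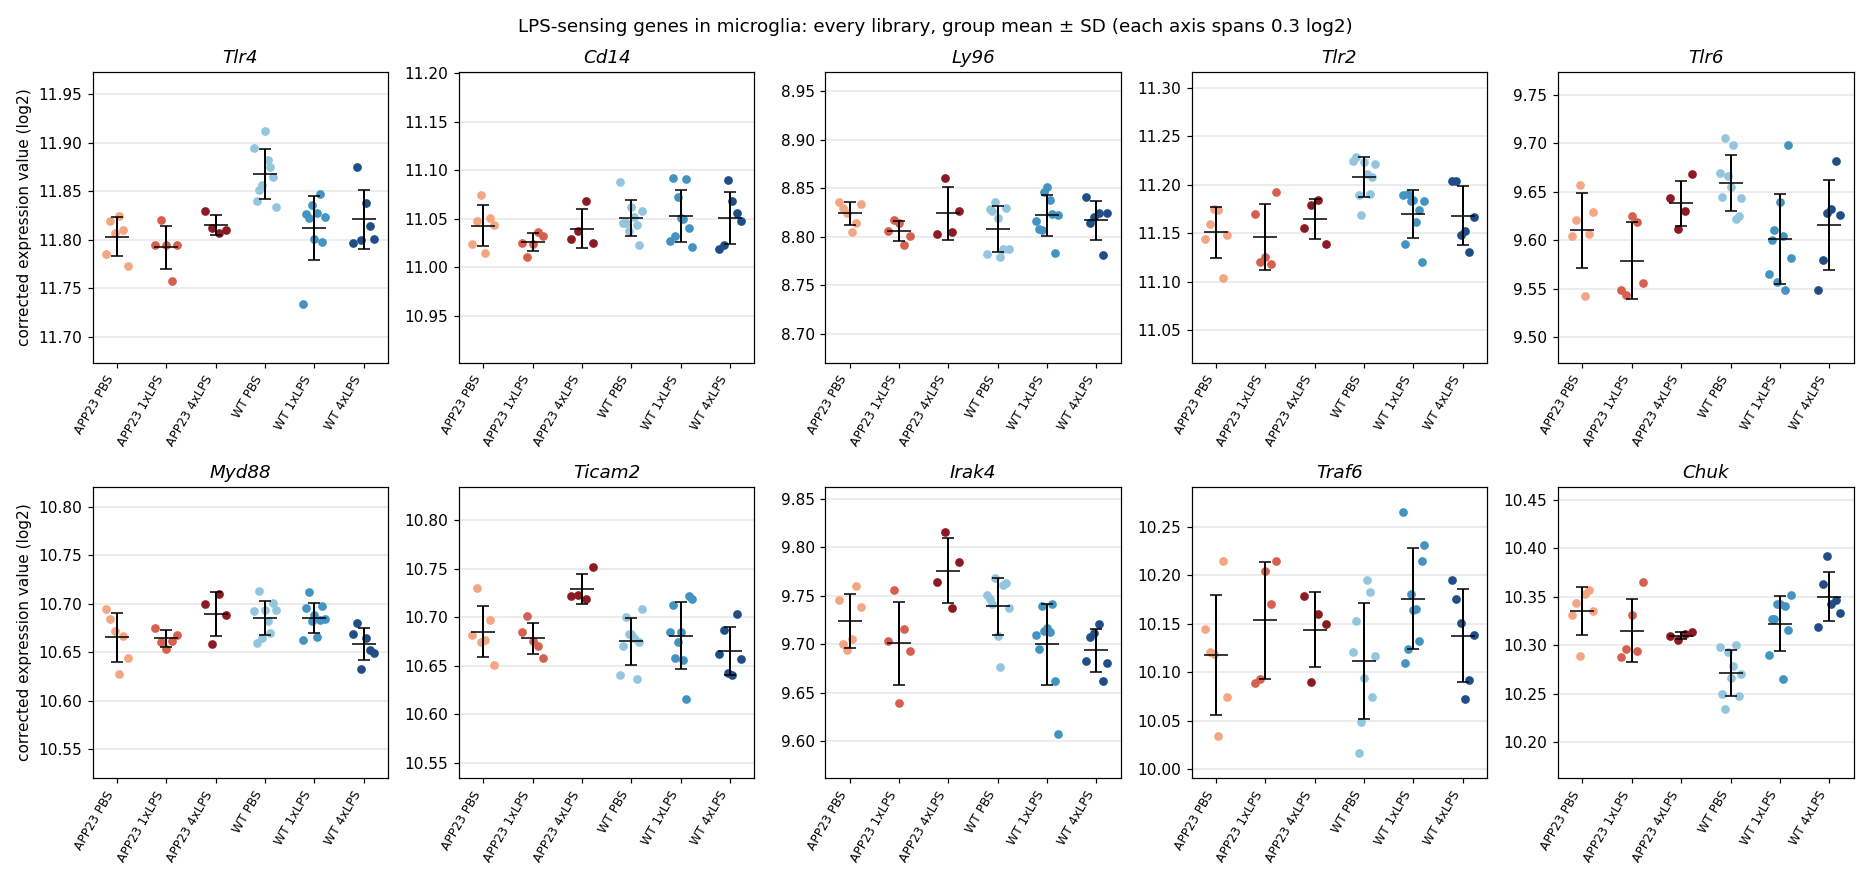
Corrected log2 values of the 10 genes in each of the 39 libraries (points) by genotype and treatment, with group means and standard deviations (horizontal and vertical black lines); every panel spans 0.3 log2 units. Tlr4 and Tlr2 are highest and Chuk lowest in WT PBS, while Cd14 and Ly96 show nearly level group means.

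Tlr4 lies on chromosome 4 (GRCm38, 66827584 to 66930284, plus strand). Its values were 11.773, 11.808 and 11.824 (lowest, median, highest) in the 6 APP23 PBS libraries, against 11.834, 11.865 and 11.912 in the 9 WT PBS libraries, so that the highest APP23 PBS library lay below the lowest WT PBS library. The difference was -0.0647 (SE 0.0159, 0.956-fold, limma adjusted p = 0.0329), and 6 of 6 APP23 PBS libraries lay below the WT PBS mean. In this comparison 1 of the 10 members fell (Tlr4) and 1 rose (Chuk), beside 1.15% of all entries called lower, 1.36% called higher and 2.51% called in either direction. At an unadjusted p under 0.05 there were 4 members (Tlr4, Chuk, Tlr2 and Tlr6), beside 18.1%. The ranges of Tlr4 did not overlap, as for 1.66% of all entries. The call rested on single libraries: without APP23 PBS replicate 1 the adjusted p was 0.0531, and without replicate 6 it was 0.0629, with differences of -0.061 and -0.0587.

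After LPS, Tlr4 was also lower in WT mice than after PBS, but short of the threshold. The 9 WT 1xLPS libraries had a lowest, median and highest value of 11.734, 11.823 and 11.847, and the 6 WT 4xLPS libraries of 11.797, 11.808 and 11.875. The difference from WT PBS was -0.0552 after 1xLPS (SE 0.0143, limma adjusted p = 0.0794, lower in 9 of 9 libraries) and -0.0465 after 4xLPS (SE 0.0159, adjusted p = 0.118, lower in 5 of 6). Both ranges overlapped that of WT PBS. In all, 26 of the 30 libraries outside the WT PBS group lay below its lowest library, and 29 of 30 below its mean. The share of all entries with such counts was not taken, so they do not set Tlr4 apart.

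In APP23 mice no difference of Tlr4 from PBS was called after either LPS schedule. The 5 APP23 1xLPS libraries had 11.795, 11.82, 11.795, 11.757 and 11.795, and the 4 APP23 4xLPS libraries had 11.83, 11.812, 11.807 and 11.81. Against APP23 PBS (mean 11.803) the difference was -0.0105 after 1xLPS (95% interval -0.048 to 0.027, adjusted p = 0.93) and 0.0119 after 4xLPS (-0.0281 to 0.0518, adjusted p = 0.92). The ranges overlapped in both cases. In the order of group means, WT PBS stood above WT 4xLPS by more than the larger of their standard deviations, and the other 4 steps between neighbours were within that spread. The response of APP23 mice to 4xLPS minus that of WT mice was 0.0584 for Tlr4 (SE 0.0252, adjusted p = 0.273) and that to 1xLPS was 0.0447 (SE 0.0232, adjusted p = 0.442).

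Tlr2 and Tlr6 encode receptors that pair on the cell surface. Tlr2 lies on chromosome 3 (83836272 to 83841767, minus strand) and Tlr6 on chromosome 5 (64952031 to 64960097, minus strand). Tlr2 had 11.104, 11.154 and 11.175 (lowest, median, highest) in APP23 PBS libraries and 11.169, 11.211 and 11.229 in WT PBS libraries. The ranges met over a narrow stretch, and 6 of 6 APP23 PBS libraries were below the WT PBS mean. The difference of -0.0568 (SE 0.016, 0.961-fold) had a limma adjusted p of 0.051 and was not called. It passed on leaving out any of 28 of the 39 libraries. These were each library of the 4 groups outside the comparison, APP23 PBS replicate 3, and WT PBS replicates 3, 4 and 7. Leaving out a library outside the comparison left the difference at -0.0568, while the residual directions without variance were sought anew. Those passes reflect the changed fit and are no support for a difference. The adjusted p ran from 0.0355 to 0.104 over the 39. It also passed with all 33 nominal residual degrees of freedom counted (adjusted p = 0.00647), where 9.62% of entries did.

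Each of the 30 libraries outside WT PBS had a Tlr2 value below the WT PBS mean of 11.208, but the share of all entries that did so was not counted. In WT mice the lowest, median and highest values were 11.12, 11.183 and 11.191 after 1xLPS and 11.131, 11.16 and 11.204 after 4xLPS. The differences from WT PBS were -0.0381 (SE 0.0143, adjusted p = 0.196) and -0.0397 (SE 0.016, adjusted p = 0.187), and both ranges overlapped that of WT PBS. In APP23 mice the 1xLPS libraries had 11.17, 11.12, 11.126, 11.118 and 11.193 and the 4xLPS libraries 11.156, 11.179, 11.184 and 11.139. These lay across the APP23 PBS range, with differences from APP23 PBS of -0.00512 and 0.0139 (adjusted p = 0.968 and 0.906). Neighbouring groups in the order of Tlr2 means differed by more than their spread only between WT PBS and WT 1xLPS.

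Tlr6 also had its highest mean in WT PBS, while the order of the other groups differed from that of Tlr2. Its lowest, median and highest values were 9.542, 9.614 and 9.657 in APP23 PBS and 9.622, 9.655 and 9.705 in WT PBS, a difference of -0.0486 (SE 0.0236, adjusted p = 0.274). In WT mice they were 9.549, 9.6 and 9.698 after 1xLPS and 9.549, 9.627 and 9.682 after 4xLPS. These groups overlapped WT PBS, with differences of -0.058 (SE 0.0211, adjusted p = 0.186) and -0.0423 (SE 0.0236, adjusted p = 0.361). The APP23 1xLPS libraries had 9.549, 9.543, 9.625, 9.619 and 9.556, the lowest group mean, and the APP23 4xLPS libraries had 9.643, 9.612, 9.63 and 9.668. Between the last 2 groups the difference was 0.0598 (SE 0.0301, adjusted p = 0.534). No pair of neighbours in the order of Tlr6 means differed by more than the larger standard deviation.

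Although Tlr2 and Tlr6 shared their highest group, they did not vary together from library to library. Over the 39 libraries Pearson's r was 0.02 (Spearman's rho 0.08). For deviations from the group means r was -0.53 (rho -0.47), the most negative of the 45 pairs of members. Tlr4 and Tlr2 showed the reverse, with r of 0.53 over all libraries and 0.10 within groups. Of the 45 pairs, 1 had a within-group r over 0.3 (Ly96 with Irak4, 0.36) and 5 were under -0.3, with a median of -0.07. These are descriptions: all points share 1 normalization and 1 correction, from which 9 of 33 residual directions had been removed.

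**Figure D2:**
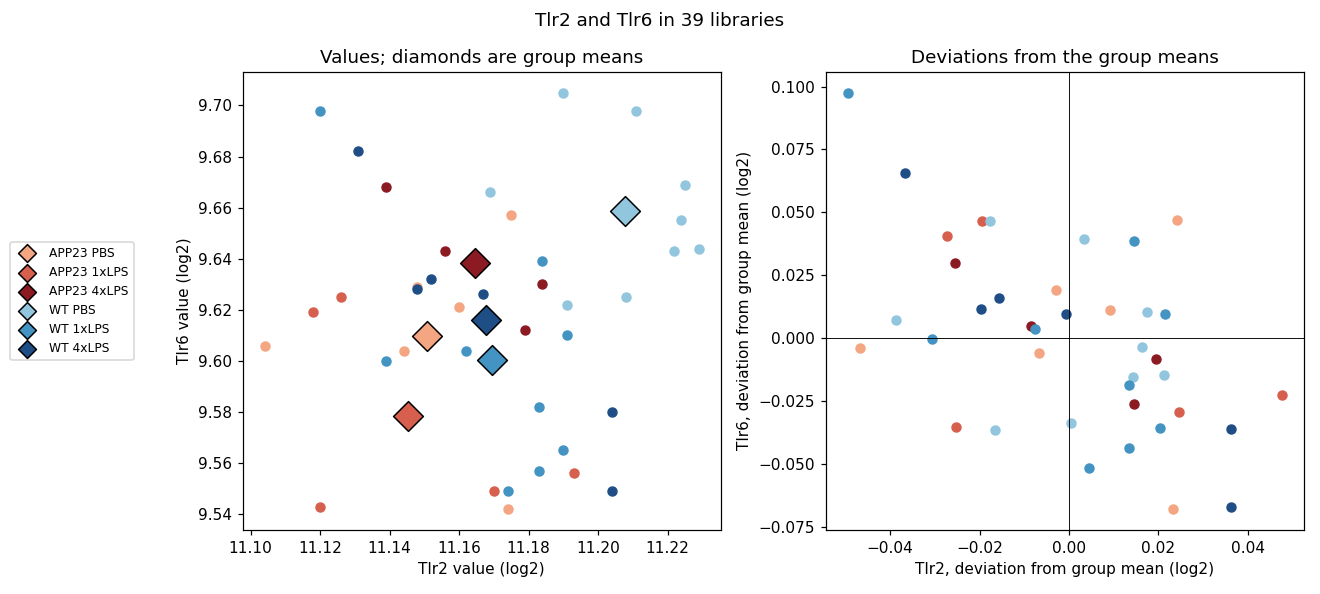
Tlr2 against Tlr6 in the 39 libraries, as corrected log2 values with group means as diamonds (left) and as deviations from the group means (right), coloured by group. WT PBS has the highest mean of both genes, and within groups the points fall from upper left to lower right (r = -0.53).

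The co-receptor genes were nearly level over the 6 groups. Cd14 (chromosome 18, 36725067 to 36726798, minus strand), the LPS-binding surface protein, had group means between 11.026 (APP23 1xLPS) and 11.053 (WT 1xLPS). Its lowest, median and highest values were 11.015, 11.046 and 11.075 in APP23 PBS and 11.023, 11.046 and 11.088 in WT PBS. After 4xLPS they were 11.019, 11.052 and 11.09 in WT mice. The APP23 1xLPS libraries had 11.025, 11.011, 11.024, 11.036 and 11.032, and the APP23 4xLPS libraries had 11.029, 11.037, 11.068 and 11.025. All groups overlapped. The widest difference, -0.0273 between APP23 1xLPS and WT 1xLPS (SE 0.0146, 95% interval -0.0572 to 0.0027), had an adjusted p of 0.445. For WT 4xLPS against WT PBS the interval ran from -0.0286 to 0.028, and for WT 1xLPS against WT PBS from -0.0233 to 0.0273, so that changes as large as those of Chuk lay outside both.

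Ly96 (chromosome 1, 16688051 to 16709611, plus strand), whose product MD-2 holds LPS within the TLR4 complex, had group means between 8.806 (APP23 1xLPS) and 8.824 (APP23 PBS), a span of 0.018 against a median span of 0.051 over all entries. The APP23 1xLPS libraries had 8.806, 8.817, 8.814, 8.792 and 8.801, and the APP23 4xLPS libraries had 8.803, 8.861, 8.805 and 8.827. The WT PBS libraries had 8.779, 8.819 and 8.836 as their lowest, median and highest. No 2 groups were separated. The F-test gave an adjusted p of 0.861 for Ly96 and 0.686 for Cd14. No neighbours in the order of group means of either gene differed by more than their spread.

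Of the adaptor genes, Myd88 (chromosome 9, 119335934 to 119341411, minus strand) had group means between 10.658 in WT 4xLPS and 10.689 in APP23 4xLPS. Its exons share bases with Acaa1a on the opposite strand, and no source at hand says whether counting used strand, so its values are uncertain. In WT mice its lowest, median and highest values were 10.659, 10.692 and 10.713 after PBS, 10.662, 10.684 and 10.712 after 1xLPS and 10.633, 10.658 and 10.68 after 4xLPS. The WT 4xLPS libraries reached the lowest values and overlapped both other groups. The difference of WT 4xLPS from WT PBS was -0.0275 (SE 0.0123, adjusted p = 0.239), below the WT PBS mean in 6 of 6 libraries, and that of APP23 4xLPS from APP23 PBS was 0.0243 (SE 0.015, adjusted p = 0.758). The APP23 4xLPS libraries had 10.7, 10.658, 10.71 and 10.688. The difference between these responses, 0.0518 (SE 0.0194), had an adjusted p of 0.209.

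Ticam2 (chromosome 18, 46557291 to 46574533, minus strand), the adaptor of the TRIF branch, was highest in APP23 4xLPS microglia. The 4 libraries of that group had 10.722, 10.723, 10.719 and 10.752, against 10.64, 10.659 and 10.703 (lowest, median, highest) in WT 4xLPS. The ranges did not overlap. That of APP23 4xLPS also lay apart from APP23 1xLPS, which had 10.685, 10.701, 10.675, 10.67 and 10.658. It overlapped the ranges of APP23 PBS (highest 10.73) and WT 1xLPS (highest 10.722). The difference from WT 4xLPS was 0.064 (SE 0.02, 1.05-fold, limma adjusted p = 0.254). In this comparison limma called 0 of the 10 members and 0% of all entries. At an unadjusted p under 0.05 it had 3 members (Irak4, Ticam2 and Myd88), beside 9.54% of all entries, and 3 members (Irak4, Ticam2 and Chuk) had ranges that did not overlap, beside 3.38%. Ticam2 and Irak4 passed with all nominal degrees of freedom counted (adjusted p = 0.0437 and 0.0447), beside 1.57% of entries. Ticam2 shares exon bases with Tmed7 on the same strand, so reads could be split between them and its values are uncertain, and Tmed7 differed by 0.0278 in the same comparison (SE 0.0262, adjusted p = 0.777).

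Irak4 (chromosome 15, 94543643 to 94581815, plus strand), the kinase that MyD88 recruits first, showed the same group at the top. The APP23 4xLPS libraries had 9.764, 9.816, 9.737 and 9.785, against 9.662, 9.695 and 9.721 (lowest, median, highest) in WT 4xLPS. Every APP23 4xLPS library lay above every WT 4xLPS library. The difference was 0.081 (SE 0.0255, 1.06-fold, adjusted p = 0.257). In APP23 mice the difference from PBS after 4xLPS was 0.0515 (SE 0.0255, adjusted p = 0.66), and in WT mice it was -0.0449 (SE 0.0208, adjusted p = 0.259). The response in APP23 minus that in WT mice was 0.0965 (SE 0.0329, adjusted p = 0.175), with 4 of 4 APP23 4xLPS libraries above the APP23 PBS mean and 6 of 6 WT 4xLPS libraries below the WT PBS mean. Irak4 shares exon bases with Twf1 on the opposite strand, which differed by 0.0105 between APP23 4xLPS and WT 4xLPS (SE 0.029, adjusted p = 0.941).

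Traf6 (chromosome 2, 101678429 to 101701669, plus strand), the ubiquitin ligase downstream of the IRAK kinases, had the widest scatter of the 10 genes, with a residual standard deviation of 0.0644 against a median of 0.0407 over all entries. In WT mice its lowest, median and highest values were 10.017, 10.117 and 10.195 after PBS, 10.11, 10.165 and 10.265 after 1xLPS and 10.073, 10.145 and 10.195 after 4xLPS. The APP23 1xLPS libraries had 10.089, 10.093, 10.205, 10.17 and 10.215, and the APP23 4xLPS libraries 10.179, 10.09, 10.16 and 10.15. All groups overlapped. The widest difference, 0.0648 between WT 1xLPS and WT PBS, had an SE of 0.0287 and an adjusted p of 0.287.

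Chuk (chromosome 19, 44073335 to 44107480, minus strand) encodes IKKα, a kinase of the complex that releases NF-κB. In WT mice its lowest, median and highest values were 10.234, 10.27 and 10.3 after PBS, 10.265, 10.327 and 10.352 after 1xLPS and 10.319, 10.345 and 10.392 after 4xLPS. Every WT 4xLPS library lay above every WT PBS library, while the 1xLPS range overlapped both. Chuk rose in WT 4xLPS microglia, by 0.0786 against WT PBS (SE 0.0162, 1.06-fold, limma adjusted p = 0.0139), and in this comparison it was the 1 member of 10 called, beside 0.88% of all entries called higher and 1.51% in either direction, and the 1 member without overlap, beside 1.53%. The call held on leaving out each of the 39 libraries in turn, with adjusted p between 0.00685 and 0.0303. After 1xLPS the difference from WT PBS was 0.0513 (SE 0.0145, adjusted p = 0.102), higher in 8 of 9 libraries, and it passed without WT 1xLPS replicate 6 (adjusted p = 0.0466).

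The APP23 PBS libraries had a lowest, median and highest Chuk value of 10.289, 10.339 and 10.357, against 10.234, 10.27 and 10.3 in WT PBS, so that the ranges met only at their ends. Chuk was higher in APP23 PBS by 0.0636 (SE 0.0162, 1.05-fold, adjusted p = 0.0338), in 6 of 6 libraries. The call was lost without APP23 PBS replicate 2 (adjusted p = 0.055), 4 (0.0614), 5 (0.0592) or 6 (0.0524). The APP23 1xLPS libraries had 10.288, 10.296, 10.331, 10.294 and 10.365, and the APP23 4xLPS libraries had 10.309, 10.305, 10.312 and 10.314. The 4xLPS values were tightly grouped, below 4xLPS values of WT mice without overlap, and inside the APP23 PBS range. The difference from WT 4xLPS was -0.04 (SE 0.0198, limma adjusted p = 0.531) and was not called. In that comparison 3.38% of all entries did not overlap. Against APP23 PBS the differences were -0.0199 after 1xLPS and -0.0251 after 4xLPS (adjusted p = 0.819 and 0.812).

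The estimated response of Chuk to 4xLPS thus had opposite signs in the 2 genotypes, -0.0251 in APP23 mice, which was not called, and 0.0786 in WT mice. The difference between them was -0.104 (SE 0.0256), with a limma adjusted p of 0.0601. It passed on leaving out any of 12 libraries (APP23 PBS replicate 3, APP23 1xLPS replicates 1, 3 or 5, WT PBS replicates 1, 4 or 7, WT 1xLPS replicates 1, 3, 6 or 9, or WT 4xLPS replicate 1), with adjusted p down to 0.0258. The 1xLPS libraries lie outside that comparison. Without any of them the difference stayed at -0.104, so those passes reflect the changed fit. For 1xLPS the difference between the responses was -0.0712 (SE 0.0236, adjusted p = 0.198). In the order of means WT PBS stood below APP23 4xLPS by more than the larger standard deviation, and the steps among the other 5 groups were within it. In all, 24 of the 30 libraries outside WT PBS lay above its highest library, but the share of all entries with such a count was not taken.

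**Figure D3:**
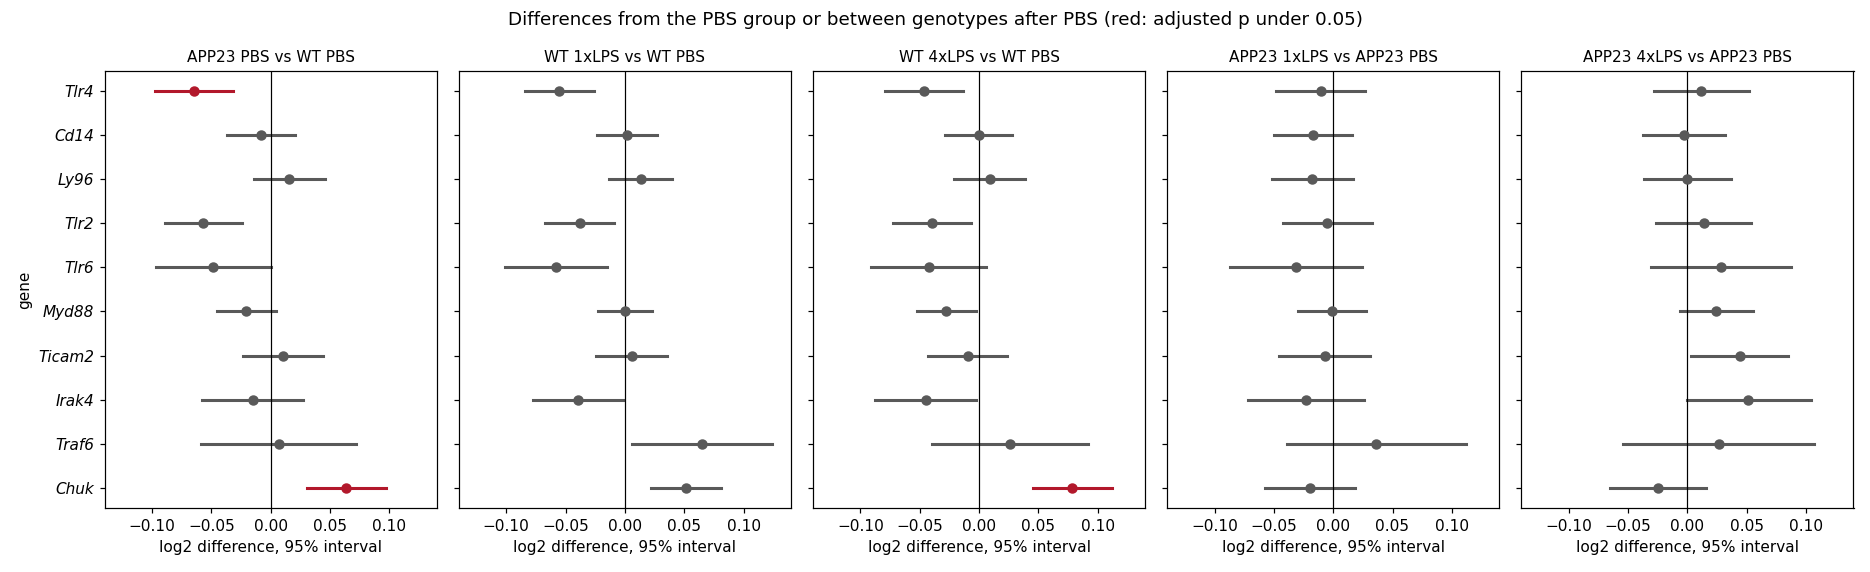
Log2 differences of the 10 genes (points) with 95% intervals (lines) for APP23 PBS against WT PBS and for 1xLPS and 4xLPS against PBS in each genotype, red where the adjusted p was under 0.05. Tlr4 is called lower and Chuk higher in APP23 PBS, Chuk is called higher in WT 4xLPS, and no member is called after LPS in APP23 mice.

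A set of 3 comparisons shares the WT PBS libraries, so their values are not independent and stand here side by side. APP23 PBS, WT 1xLPS and WT 4xLPS differed from WT PBS by -0.0647, -0.0552 and -0.0465 in Tlr4. The same differences were -0.0568, -0.0381 and -0.0397 in Tlr2, and -0.0486, -0.058 and -0.0423 in Tlr6. For Chuk they were 0.0636, 0.0513 and 0.0786. The 3 receptor genes thus lay below WT PBS and Chuk above it in each of these 3 groups. Traf6 differed by 0.00652, 0.0648 and 0.0263, and Irak4 by -0.0154, -0.0396 and -0.0449, with no call among them.

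In WT mice a single LPS injection left 0 of the 10 members called by limma, where 0.44% of all entries were called. At an unadjusted p under 0.05 there were 6 members (Tlr4, Chuk, Tlr6, Tlr2, Traf6 and Irak4), beside 14.9% of all entries. With all nominal degrees of freedom counted 3 passed (Tlr4, Tlr6 and Chuk), beside 6.05% of entries. The median size of the 10 differences, without sign, was 0.0389, against 0.0174 over all entries, but the signs were split, 6 up and 4 down. After 4 injections, 1 member was called (2 with all nominal degrees of freedom, Tlr4 and Chuk, beside 8.95% of entries) and 5 had an unadjusted p under 0.05, beside 17.4%, with a median size of 0.0336 against 0.0204. Between WT 4xLPS and WT 1xLPS, limma called 0 members and 0.0183% of entries, and 1 member had an unadjusted p under 0.05 (Myd88, -0.0276, adjusted p = 0.49), beside 9.13%. There, 0 members passed with all nominal degrees of freedom, beside 0.66% of entries.

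In APP23 mice no LPS schedule gave a call among the members. For 1xLPS against PBS, limma called 0 members and 0% of entries, and 0 members but 8.47% of entries had an unadjusted p under 0.05. For 4xLPS against PBS, limma called 0 members and 0% of entries, and 1 member had an unadjusted p under 0.05 (Ticam2, 0.0441, adjusted p = 0.596), beside 7.62%. For 4xLPS against 1xLPS, limma called 0 members and 0% of entries, and 2 members had an unadjusted p under 0.05 (Irak4, 0.0743, adjusted p = 0.323, and Ticam2, 0.0513, adjusted p = 0.406), beside 9.74%. Ticam2 was the 1 member without overlap in the last comparison, beside 5.73% of entries. With all nominal degrees of freedom counted 0 members passed in these 3 comparisons, beside 0.715%, 0.247% and 1.48% of entries in the order given. The APP23 groups had 4 to 6 libraries, so that intervals were wider than in WT mice. For Chuk the 95% interval after 4xLPS ran from -0.0656 to 0.0155 in APP23 mice and from 0.0455 to 0.112 in WT mice.

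Between genotypes after 1xLPS, limma called 0 members and 0.33% of entries, and 0 members but 12.9% of entries had an unadjusted p under 0.05. Also 0 members passed with all nominal degrees of freedom counted, beside 4.34% of entries. Of the 10 differences, 9 were negative, from -0.0273 (Cd14) upward, and that of Irak4 was 0.00141. Averaged over the 3 treatments, APP23 minus WT was called for 0 members and 1.18% of entries. There, 3 members had an unadjusted p under 0.05, beside 14.8% of entries: Tlr4 (-0.0303, SE 0.0101, adjusted p = 0.145), Tlr2 (-0.028, SE 0.0101, adjusted p = 0.176) and Ticam2 (0.0239, SE 0.0103, adjusted p = 0.265). Tlr4 passed there without WT 1xLPS replicate 1 (adjusted p = 0.0452). With all nominal degrees of freedom counted Tlr4 and Tlr2 passed, beside 6.07% of entries.

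The tests of whether the genotypes responded differently called 0 members for 1xLPS, beside 0.0366% of entries, and 0 members for 4xLPS, beside 0.522%. For 1xLPS, 1 member had an unadjusted p under 0.05 (Chuk), beside 12.2% of entries. For 4xLPS there were 6 (Chuk, Irak4, Myd88, Tlr4, Tlr2 and Ticam2), beside 14.6%. Among these, Chuk had the negative value (-0.104), and the other 5 lay between 0.0518 (Myd88) and 0.0965 (Irak4). With all nominal degrees of freedom counted Chuk passed for 1xLPS, beside 3.39% of entries, and Chuk and Irak4 passed for 4xLPS, beside 5.3%.

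**Figure D4:**
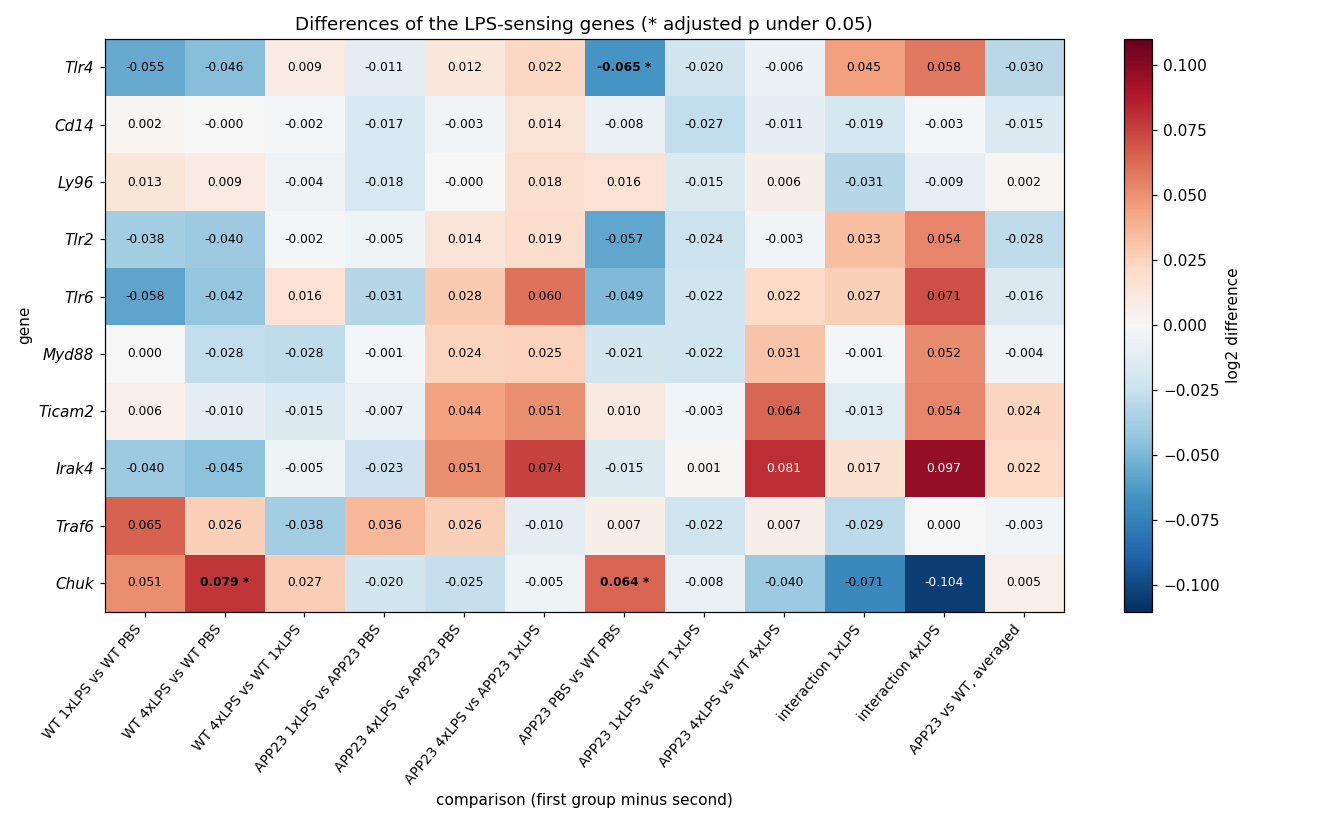
Log2 differences of the 10 genes (rows) in the 12 comparisons (columns; red higher and blue lower in the group named first), with asterisks at adjusted p under 0.05. The 3 asterisks are at Tlr4 and Chuk for APP23 PBS against WT PBS and at Chuk for WT 4xLPS against WT PBS.

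Other genes of the pathway were taken from 7 lists, in which 87 of 106 genes had entries. Called genes are read against the shares of all entries given above. In APP23 PBS against WT PBS, 0 rose and 1 fell: Il1a, the gene of interleukin-1α, had 10.81 ± 0.0189 in APP23 PBS and 10.87 ± 0.0152 in WT PBS (SD, n = 6 and 9), a difference of -0.0596 (SE 0.0142, limma adjusted p = 0.0275). In WT 1xLPS against WT PBS, 0 of the 87 were called. In WT 4xLPS against WT PBS, where 0.632% of all entries were called lower, 0 rose and 2 fell, both chemokines among the LPS-induced products. Ccl4 had 8.608 ± 0.0608 in WT 4xLPS and 8.774 ± 0.0646 in WT PBS (SD, n = 6 and 9), a difference of -0.166 (SE 0.0334, adjusted p = 0.0109). Ccl3 had 8.861 ± 0.0325 in WT 4xLPS and 8.972 ± 0.0428 in WT PBS, a difference of -0.111 (SE 0.0256, adjusted p = 0.0278). Each was below the WT PBS mean in 6 of 6 libraries. The 11 measured of 22 LPS-induced products had a median difference of -0.0356 there, against 0.00233 over all entries. The median of this list was further below 0 where none of its genes was called: -0.0581 in APP23 1xLPS and -0.0465 in APP23 4xLPS against APP23 PBS, and -0.054 in APP23 1xLPS against WT 1xLPS.

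In the genotype average 3 of the 87 measured pathway genes were called (3.45%, beside 1.18% of all entries), and in the 4xLPS interaction 1 was (1.15%, beside 0.522%). None of the 7 measured of 9 other Toll-like receptors was called in a pair of groups, and Tlr12, a receptor for profilin of protozoa, was lower in APP23 than in WT mice averaged over treatments (-0.0729, SE 0.0162, adjusted p = 0.0248). Of 11 measured receptor accessory and trafficking proteins, 17 genes of the TAK1, IKK and MAP kinase relay and 12 NF-κB and IRF transcription factors, 0 were called in any comparison. Of 12 adaptors and proximal kinases, 1 was called: the response of Btk, a tyrosine kinase of Toll-like receptor signalling, to 4xLPS was lower in APP23 than in WT mice by a difference of -0.0951 (SE 0.0208, adjusted p = 0.0307). Its differences from PBS after 4xLPS were -0.0546 in APP23 and 0.0405 in WT mice, neither called. Of 17 negative regulators, 1 was called: Cd300a, an inhibitory receptor, was higher in APP23 mice averaged over treatments (0.0336, SE 0.00851, adjusted p = 0.0451). Il1a was lower in that average as well (-0.0436, SE 0.00902, adjusted p = 0.0194). Single markers of other cells were also lower in the genotype average. Ccr2 of monocytes differed by -0.155 (SE 0.0361, limma adjusted p = 0.0315), 1 called of 2 measured on its list. The other gene, Plac8, went the opposite way, and the median difference of the 2 was -0.0458. Cd209a of dendritic cells differed by -0.155 (SE 0.0366, adjusted p = 0.0335), 1 called of 4, with a list median of -0.0186. In APP23 PBS, 1xLPS and 4xLPS the mean of the dendritic list ran from 7.643 to 7.727, from 7.591 to 7.682 and from 7.632 to 7.723. In WT PBS, 1xLPS and 4xLPS it ran from 7.673 to 7.75, from 7.648 to 7.744 and from 7.686 to 7.736. The mean of the monocyte and neutrophil list ran from 7.743 to 7.912 in APP23 1xLPS and from 7.757 to 7.993 in WT 1xLPS, and from 7.786 to 7.988 in APP23 4xLPS and from 7.804 to 7.95 in WT 4xLPS. The part of these cells in the averaged differences was not tested.

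**Figure D5:**
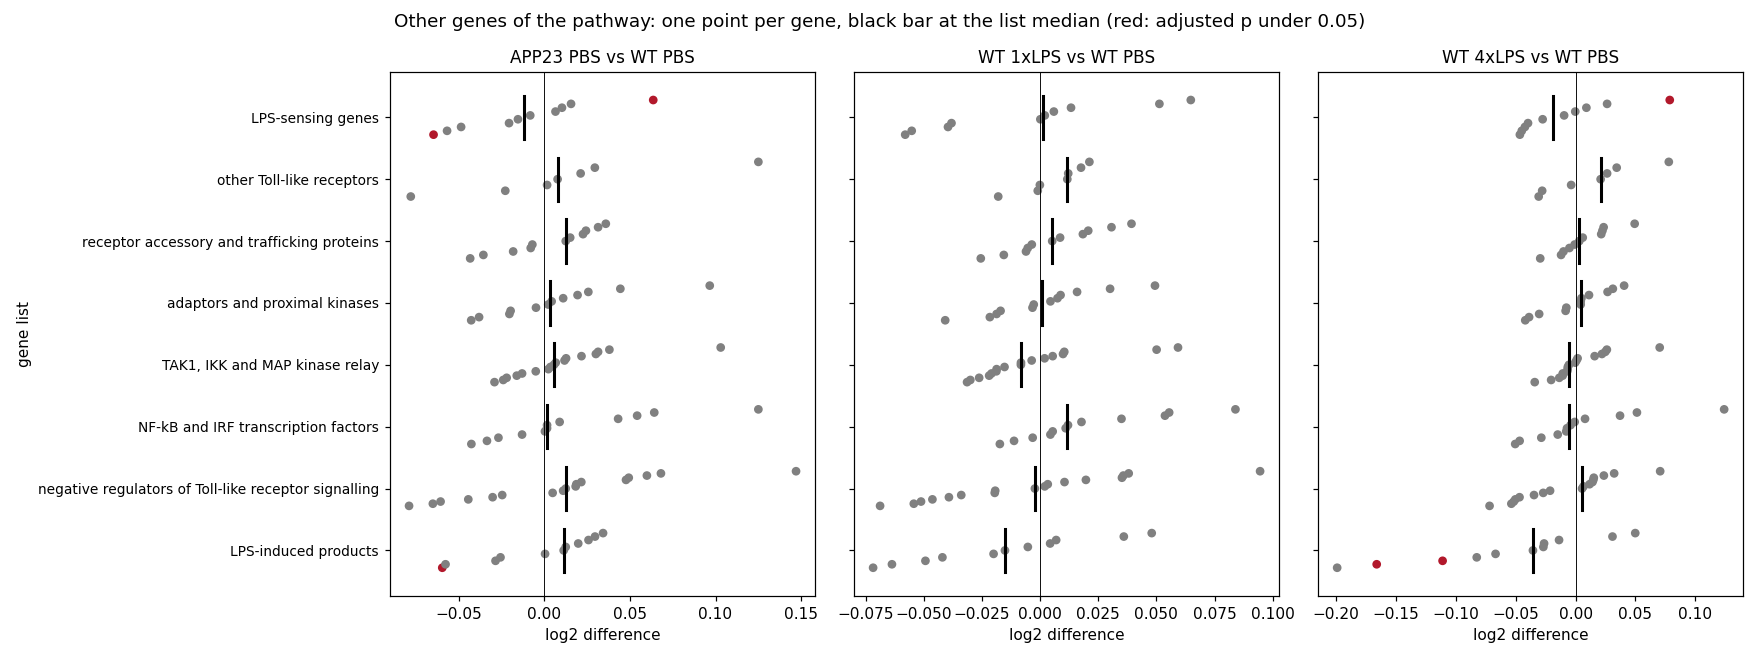
Log2 differences of the LPS-sensing genes and of 7 other pathway lists (points, 1 per gene; black bars, list medians) in APP23 PBS, WT 1xLPS and WT 4xLPS against WT PBS, red where the adjusted p was under 0.05. Most points lie close to 0, and the called ones are Tlr4, Chuk and Il1a in APP23 PBS and Chuk, Ccl3 and Ccl4 in WT 4xLPS.

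Single markers of other cells were called in APP23 PBS against WT PBS. Ccr2, the chemokine receptor of monocytes, had 8.989 ± 0.0836 in APP23 PBS and 9.219 ± 0.0952 in WT PBS (SD, n = 6 and 9), a difference of -0.23 (SE 0.0569, limma adjusted p = 0.0329). With Plac8 it was 1 of 2 measured of the 10 listed markers of monocytes and neutrophils. Their mean ran from 7.71 to 7.881 in APP23 PBS and from 7.756 to 7.962 in WT PBS. Plac8 went the opposite way to Ccr2, and the median difference of the 2 was -0.093. Stab1 was higher in APP23 PBS (0.0669, SE 0.0169, adjusted p = 0.0336) and was the 1 called of 5 measured markers of border-associated macrophages. The mean of that list ran from 8.053 to 8.169 in APP23 PBS and from 8.034 to 8.178 in WT PBS. Its group means were nearly level, 8.107 and 8.103, and the median difference of its genes was 0.0153. Fos, an immediate early gene, had 9.395 ± 0.119 in APP23 PBS and 9.124 ± 0.133 in WT PBS, a difference of 0.271 (adjusted p = 0.0225), and the mean of 13 measured of 18 immediate early and dissociation genes ran from 9.41 to 9.486 in APP23 PBS and from 9.301 to 9.446 in WT PBS. The part of these genes in the values of Tlr4 and Chuk was not tested. In WT 4xLPS against WT PBS, where Chuk rose, 0 markers were called. The microglial list was lowest in WT PBS, as Chuk was: the median difference of its 10 genes from WT PBS was 0.0284 in APP23 PBS, 0.0314 in WT 1xLPS and 0.0306 in WT 4xLPS, with 0 of 10 called in each. Its mean ran from 12.686 to 12.729 in APP23 PBS, from 12.629 to 12.795 in WT 1xLPS and from 12.651 to 12.766 in WT 4xLPS, against 12.631 to 12.71 in WT PBS. Its part in the values of Chuk was not tested.

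The genes whose values over the 39 libraries were most like those of 3 members were taken from 10310 named entries. For Tlr4 they were Nfx1 (Pearson's r 0.735), Hp1bp3 (0.717) and Kctd13 (0.7), and the most opposed were Cd37 (-0.684) and Suclg2 (-0.67). For Cd14 they were Smim3 (0.719), Dhx36 (0.631) and Lxn (0.622), against Phyh (-0.702) and Prkaa2 (-0.626). For Chuk they were Dyx1c1 (0.731), Ascc1 (0.725) and Laptm4a (0.704), against Capg (-0.756) and Prkx (-0.721). No gene appears under more than 1 of the 3 members. All libraries of all groups enter these values, so differences between groups and the correction of the table add to them.

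The authors' deposited table of co-expression results covered 13624 genes and held all 10 members. Of the members, 7 were placed by the authors' deposited table, among them Cd14, Tlr2 and Myd88, in the grey class that marks genes in no named module, which held 26% of all genes. Tlr4 was in the turquoise module, Traf6 in brown and Chuk in pink, of 9 named modules. The authors' deposited table gave Tlr4 a correlation of 0.566 with its own module, Chuk 0.589 and Traf6 0.37. Its correlations with a trait named for 1xLPS were negative for 8 members, with unadjusted p under 0.05 for Cd14 (-0.366), Tlr4 (-0.355), Tlr2 (-0.344) and Tlr6 (-0.322), where 18.4% of all genes in the authors' deposited table had such a p. Chuk was near 0 there (0.0326), as was Ticam2 (-0.0417). The header does not say what the trait contrasts.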

How the data were processed

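Microglia of 39 libraries in 6 groups were assigned from the genotype and treatment labels. Per the labels' protocols, 10k sorted cells gave RNA that was amplified by the Smart-seq2 v4 protocol and made into libraries with Nextera XT. Libraries were multiplexed in lanes and APP and WT samples were pooled for sequencing, per the labels. Which libraries shared a lane is not given, so lane entered no fit and its part in the differences was not tested. The submitters' processing notes name STAR 2.3.060, HOMER, DESeq2, limma, FastQC and the build mm10, with no role for each. The deposited log2 expression values were normalized and log-transformed by the authors and, per the sheet name, corrected by surrogate variable analysis. The base of the log is not stated and was read as 2. No counts are in the table, so depth is unknown. Of its columns, 1 matched no sample label and was not used. The deposited co-expression table by the authors holds, per the file headers, score columns (correlations of a gene with a trait or a module), unadjusted p-values of these correlations computed by the authors, and each gene's module name.

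For each entry, 6 group means were estimated by limma 3.58.1 under R 4.3.3, and variances were moderated towards their trend with the mean. The 9 residual directions with no variance, of 33, entered as covariates and left 24 degrees of freedom. There were 12 contrasts and an F-test over the 6 groups, each adjusted by Benjamini-Hochberg over 10915 entries, with calls at adjusted p under 0.05. Intervals are 95% intervals from limma, and ± gives SDs. No pseudocount was added and no low-value filter applied. The fit was tested on simulated data, only with planted differences wider than any between pairs of groups in the members. Alternatives counted all nominal degrees of freedom, left out entries below the lower quartile, centred libraries on a common median, dropped the trend, used robust moderation, library weights or a replicate block, fitted only the groups compared, or left out each library in turn.

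The members, the pathway and marker lists and the tests were chosen with earlier results of these data known. Named besides the members were up to 3 called genes of each pathway list and comparison by smallest p. The 3 most alike and 2 most opposed genes for Tlr4, Cd14 and Chuk and called marker genes were named too. Coordinates are those of GENCODE M21 (GRCm38), count from 1 and were matched by symbol, and promoter windows are those of RefSeq (GRCm38.p6).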

Additional observations from a re-analysis of the deposited data

Results flagged for a closer look

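Over 60 combinations of 10 genes and 6 groups, 2 held a library that stood apart from the others of its group, and chance alone would do this in about 1 in 20 groups. WT 1xLPS replicate 1 had the lowest Tlr4 value of its group, 11.734, with 11.798 the next. APP23 4xLPS replicate 4 had the highest Ticam2 value of its group, 10.752, with 10.723 the next.

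For 2 genes, all 4xLPS libraries of APP23 mice and all of WT mice lay on opposite sides of the PBS mean of their genotype. The share of all entries that did so was not counted, so this does not set the 2 genes apart. For Irak4 the APP23 response minus the WT response was 0.0965, and its interaction test in limma gave an adjusted p of 0.175. For Chuk it was -0.104, with an adjusted p of 0.0601.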

How the results depend on the processing

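Calls of members changed most with the degrees of freedom. With all 33 counted, 3 members were called in WT 1xLPS against WT PBS (0 in the reported fit), 2 in WT 4xLPS against WT PBS (1), 2 in APP23 4xLPS against WT 4xLPS (0), 1 for the interaction with 1xLPS (0), 2 for that with 4xLPS (0), 2 in APP23 against WT averaged over treatments (0) and 5 in the F-test (2). With only the compared groups fitted, 2 members were called in WT 1xLPS and 2 in WT 4xLPS against WT PBS, and 2 for the 4xLPS interaction. Such fits found 0 directions without variance for every pair of groups and for the 4xLPS interaction. They made no allowance for the 9 found over all libraries, so their extra calls are not separate support. Centring on a common median called 1 in WT 1xLPS against WT PBS, and without the trend the F-test called 1. In APP23 PBS against WT PBS, 3 members were called with all degrees of freedom, the low-value filter, centring or only the compared groups (2 in the reported fit), Tlr2 being the third. Robust moderation and library weights left the counts of members as they were. Over all entries, calls in APP23 PBS against WT PBS numbered 274, and 1050 with all degrees of freedom, 886 with only the compared groups and 60 with the block. In WT 4xLPS against WT PBS they numbered 165, and 977, 830 and 25 in the same settings, with 65 under library weights. In WT 1xLPS against WT PBS they numbered 48, and 660, 471 and 28. Between genotypes after 1xLPS they numbered 36, and 474, 342 and 0, with 89 under library weights and 62 with centring. For the 4xLPS interaction they numbered 57, and 579, 409 and 2, and for the 1xLPS interaction 4, and 370, 320 and 9, with 17 under centring. The genotype average had 129, and 662 with all degrees of freedom and 27 with the block, and the F-test 233, and 2300 and 38. The remaining comparisons had 0 to 2 calls, and 27 to 171 with all degrees of freedom.

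The replicate block called 0 members in APP23 PBS against WT PBS, 0 in WT 4xLPS against WT PBS and 0 in the F-test. Over 79 same-numbered pairs the correlation of deviations was -0.378 to 0.283 (median 0.0359, 17 over 0.1), and 3 of 39 libraries were closest to one of their own number. The correction had already removed 9 of 33 residual directions. These correlations therefore cannot show whether a number stands for a shared batch or pairing.

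On leaving out single libraries the members called ranged from 0 to 3 in APP23 PBS against WT PBS, from 0 to 1 in WT 1xLPS against WT PBS, for the 4xLPS interaction and in the genotype average, and from 0 to 2 in the F-test. It was 1 throughout in WT 4xLPS against WT PBS. The residual directions without variance were sought anew in each of these fits. Leaving out a library outside a comparison therefore also moved the adjusted p of that comparison. Of 5640 values of members under alternatives, 5568 kept their side of the threshold, 63 passed anew, 9 no longer passed and no called value changed sign, while 130 uncalled values did, the widest of them 0.02202 in the reported fit. The corrected values carry no counts, so no limit from depth could be given.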
